A study of Mus musculus with 45 samples.

Results

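The 46 genes described here act in DNA damage signalling and DNA repair. They are the rows of the deposited count table whose gene name stands on a written list of 46 symbols, out of 55357 genes in the table. All 46 symbols were found, each once. By role, 9 act in damage signalling, 15 in homologous recombination, 4 in mismatch repair, 5 in end joining, 8 in base excision and single-strand break repair, and 5 in interstrand crosslink repair.

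RNA was sequenced from 45 single mouse oocytes, each lysed and amplified as its own library. In 3 groups the oocyte came from a reconstituted chimeric follicle (RCF), a follicle that had lost its own oocyte, received another one and was then cultured. AY held aged oocytes with young somatic cells (n = 6), AA aged oocytes with aged somatic cells (n = 12) and YY young oocytes with young somatic cells (n = 11). In vitro young held young oocytes after culture (n = 8) and in vivo young held young oocytes without culture (n = 8). The chimeric groups all carry the transfer and the culture, and no group of young oocytes in aged somatic cells is analysed here. The age in months, the mouse strain, the meiotic stage and the animal behind each oocyte are not given in the sources used here. Each p-value therefore sets a difference against the spread from oocyte to oocyte, and part of that spread may be technical.

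Oocytes carry a genome that is held for a long time in meiotic arrest, and they keep a store of transcripts for repair factors. Double-strand breaks are sensed by the MRE11 complex and the ATM kinase and are repaired by homologous recombination, in which BRCA1 and BRCA2 act, or by end joining, which starts with the Ku dimer. In mouse oocytes, ATM and CHEK2 signal to the p53 relative encoded by Trp63, which removes damaged oocytes. Mismatched bases are recognised by dimers that hold MSH3 or MSH6, and single-strand breaks by PARP enzymes that call in XRCC1 and a DNA ligase.

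Total counts per library ranged from 538916 to 1088254 in AY, from 503354 to 1335807 in AA, from 462476 to 1023332 in YY, from 900194 to 1527370 in in vitro young and from 418703 to 2201980 in in vivo young. Levels are given as CPM, a gene's counts scaled to a common library size, with TMM factors over all 45 libraries, so a level is a share of an oocyte's RNA, and a gene's level cannot be told apart from a change in the RNA of all other genes. A count of 0 allows a level of up to 1.36 CPM in the deepest and 7.16 CPM in the shallowest library (3 counts, counting error only). The 11 oocyte markers summed to between 14660 and 29355 CPM in every library. In AA against YY 5 of them were called, where 27.5% of all tested genes were. Of 10 granulosa cell markers, 1 to 3 were at 0 in each group, Amh in all 5, and the 10 summed to a median of 61.2 to 107 CPM per group (unscaled CPM). The YY libraries carry numbers of 2 series, S198 to S202 (n = 5) and S225 to S231 (n = 6), which stood apart for several repair genes, so called genes are also given against each series. In vitro young held S128 to S149 (n = 4) and S162 to S165 (n = 4), in vivo young S17 and S18 apart from S71 to S77, and AY S234 apart from S240 to S244. No group shared a range of numbers with another, so the numbering and the group cannot be told apart.

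The repair genes were expressed over a wide range. Per kilobase of exon, Chek1, which encodes the kinase that halts the cell cycle when DNA replication or repair is incomplete, stood highest at a mean of 147 CPM per kb over all libraries. It was followed by Xrcc5, a subunit of the Ku dimer, at 72.4 CPM per kb, and by Rpa2 and Rpa1, subunits of the protein that coats single-stranded DNA, at 54.7 and 50.3 CPM per kb. Mlh3, which acts in meiotic crossing over, was the lowest at 0.302 CPM per kb, below Fanca at 0.334 and Prkdc at 0.347 CPM per kb. Low levels matter for what could be tested: 40 of the 46 genes passed the filter on low counts in the fit of AA, AY and YY. The other 6 were Atm, Chek2, Mdc1, Mlh3, Prkdc and Fanca, of which Mdc1 passed in the fit with the controls, where 41 were tested.

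**Figure D1:**
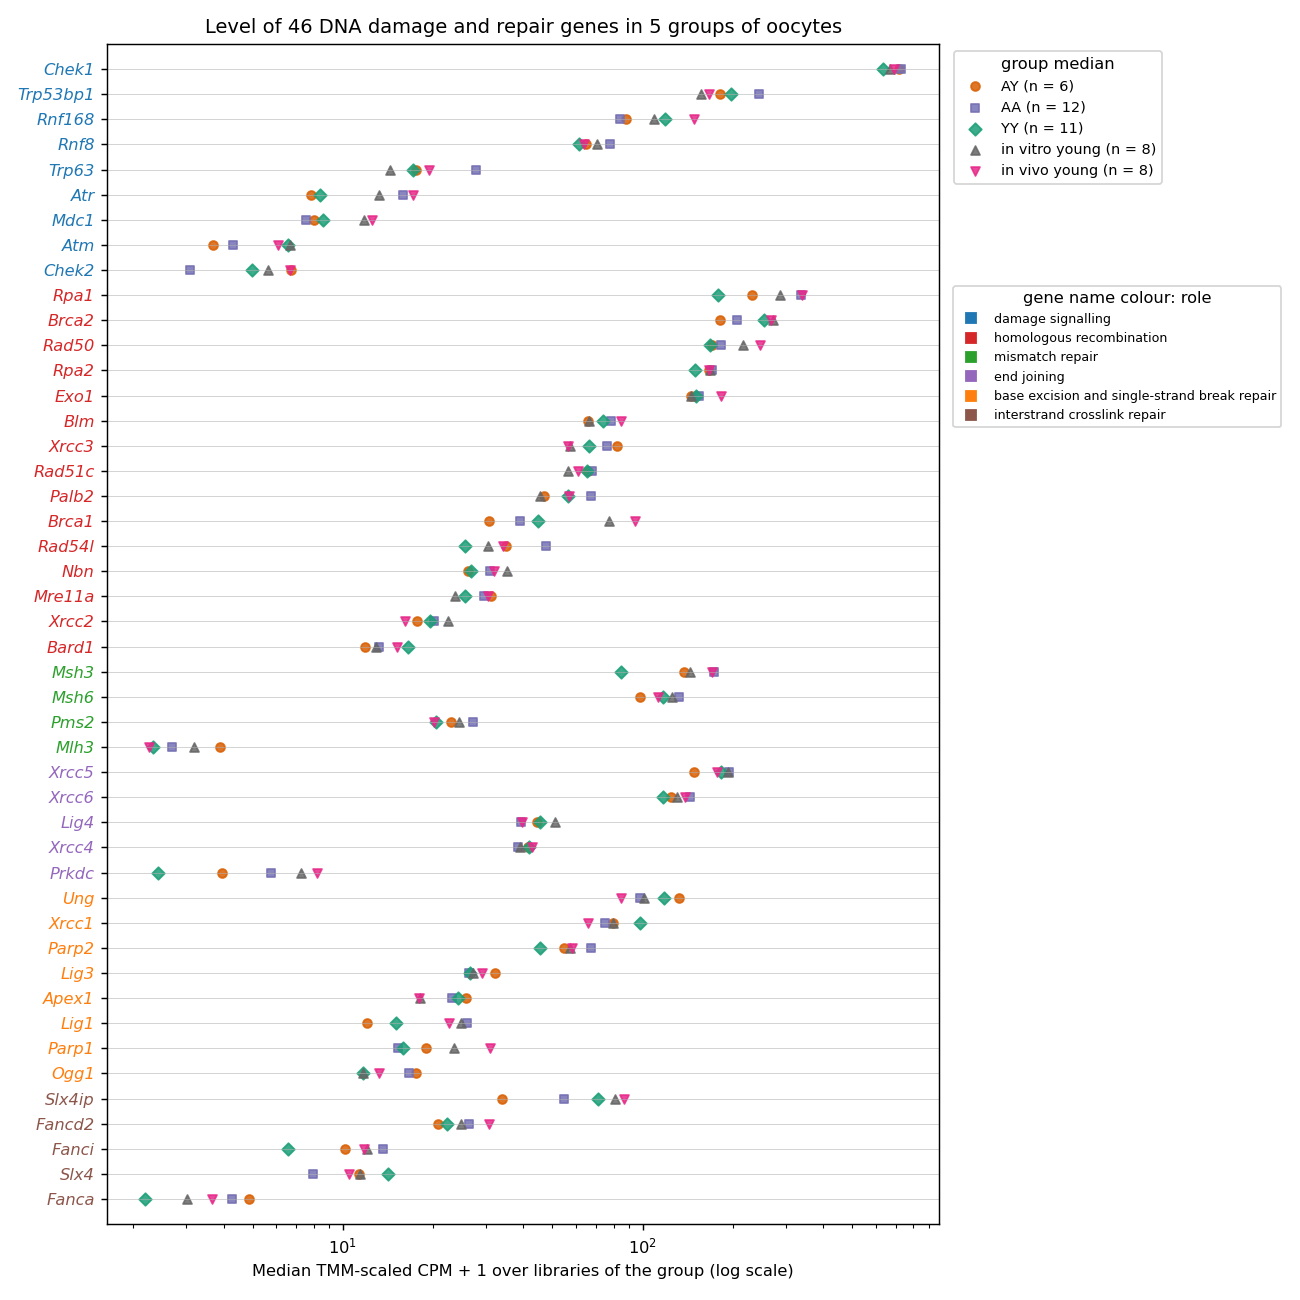
Median TMM-scaled CPM + 1 (log axis) of each of the 46 genes in each of the 5 groups, with genes sorted by role (name colour) and by mean level within a role. Chek1 lies furthest right in each group, and most genes have their 5 group medians close together compared with the range over genes.

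The genes below the filter are described by their levels, with no test. Atm, the kinase that answers double-strand breaks, had a median of 2.69 CPM in AY, 3.3 in AA, 5.57 in YY, 5.68 in in vitro young and 5.08 in in vivo young. Chek2, the kinase it activates, had medians of 5.74 CPM in AY, 2.1 in AA, 3.96 in YY, 4.64 in in vitro young and 5.65 in in vivo young, with 5 libraries at 0 counts. Prkdc, the catalytic kinase of end joining, was at 0 counts in 8 libraries, Fanca, a subunit of the Fanconi anaemia core complex, in 6 and Mlh3 in 11. The group ranges of all 3 overlapped.

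Repair gene levels varied between the oocytes of a group. Among genes with a mean of at least 10 CPM, the median coefficient of variation between libraries was 24.9% in AY, 22.3% in AA, 26% in YY, 22.2% in in vitro young and 24.4% in in vivo young. Counting error alone would give medians of 12.8 to 15.6%, and 2 to 4 genes per group lay below their own counting value. In AY the range ran from 4.18% for Rpa2 to 90.6% for Fanci. In AA the range ran from 10% for Chek1 to 46.2% for Parp1, the main poly(ADP-ribose) polymerase. In YY it ran from 12.8% for Rpa2 to 48.8% for Rpa1.

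Promoter windows, 250 bases before to 50 bases after a gene's start, were found in RefSeq (GRCm38.p6) for 39 of the 46 genes, as 48 windows. They were searched on both strands for TTTNNCGC, a loose form of the site of the E2F factors, and for CCAAT, the site of NF-Y. TTTNNCGC lay in 10 of the 48 windows (20.8%), against 5.17% of all 32851 windows of this length, and the 9 genes that held it were Bard1, Brca2, Chek2, Lig1, Mdc1, Msh3, Msh6, Rad51c and Xrcc6. CCAAT lay in 26 windows (54.2%), against 37.4% of all windows. Lig1 and Msh3 are shown because they were the members called both in AA against YY and in YY against in vitro young, 2 comparisons that share the YY libraries; capitals mark the TTTNNCGC matches on either strand. A match is a description of the letters and no sign of binding.

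Lig1, chr7:13278576-13278875, plus strand: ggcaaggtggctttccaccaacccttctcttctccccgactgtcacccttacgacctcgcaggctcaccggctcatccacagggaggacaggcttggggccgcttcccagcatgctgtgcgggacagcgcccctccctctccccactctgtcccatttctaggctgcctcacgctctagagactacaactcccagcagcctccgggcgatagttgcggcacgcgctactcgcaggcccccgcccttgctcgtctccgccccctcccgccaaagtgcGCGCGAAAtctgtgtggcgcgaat
Msh3, chr13:92354954-92355253, minus strand: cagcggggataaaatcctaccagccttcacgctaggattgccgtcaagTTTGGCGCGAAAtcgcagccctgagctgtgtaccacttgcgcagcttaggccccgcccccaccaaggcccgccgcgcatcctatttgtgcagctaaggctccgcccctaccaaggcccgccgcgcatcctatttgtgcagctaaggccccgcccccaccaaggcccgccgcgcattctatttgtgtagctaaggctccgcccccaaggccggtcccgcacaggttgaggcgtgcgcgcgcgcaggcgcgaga

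The window of Lig1 holds 1 match, whose first base is base 27 counted from the start site, and that of Msh3 holds 2 overlapping matches upstream of it.

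In AA oocytes, set against YY oocytes, the repair genes moved in both directions by moderate amounts. Msh3, a mismatch sensor of larger loops, Lig1, the ligase that seals Okazaki fragments and repair patches, and Parp2, a single-strand break sensor, were higher in AA. So were Rpa1, Rad54l, Trp53bp1, Xrcc6 and Chek1, while Slx4, Rnf168 and Xrcc1 were lower. In all, 11 of the 40 tested genes were called (quasi-likelihood test of edgeR, Benjamini-Hochberg adjusted p under 0.05), which is 27.5% and the same as the 27.5% called among all 8533 tested genes. The 8 higher genes were 20% of the 40, against 12.8% of all tested genes, and the 3 lower ones 7.5%, against 14.7%. At an unadjusted p under 0.05 there were 15 (37.5%), against 38% of all tested genes. The median log2 fold change of the 40 was 0.16, beside -0.01 over all tested genes. For no gene of the 40 were the AA and YY libraries free of overlap, and the share over all tested genes is not given here.

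Damage signalling had 6 tested genes, of which 2 rose and 1 fell (50% called, against 27.5% of all tested genes). Chek1 had 584 CPM in the lowest, 727 in the median and 863 in the highest AA library, against 459, 635 and 765 CPM in YY. Its log2 fold change was 0.23 ± 0.08 (SE; edgeR adjusted p = 0.0278), and 11 of 12 AA libraries exceeded the YY median. Trp53bp1, which encodes the chromatin reader that channels breaks toward end joining, ranged from 159 to 340 CPM around a median of 243.1 in AA, against 92.8 to 240 around 196 in YY, a log2 fold change of 0.40 ± 0.13 (edgeR adjusted p = 0.0189). AA lay above the highest YY library in 7 of 12 cases. Rnf168, the ubiquitin ligase that marks histones at breaks for Trp53bp1, went the other way. It had 58.9, 83.1 and 101 CPM in the lowest, median and highest AA library, against 76.8, 118 and 137 in YY (log2 fold change -0.45 ± 0.12, edgeR adjusted p = 0.00316). All 12 AA libraries lay below the YY median.

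Damage signalling genes that were named but not called were Atr, Rnf8 and Trp63. Atr, the kinase that answers stalled forks, had a log2 fold change of 0.79 ± 0.33 in AA (edgeR adjusted p = 0.0676), with levels from 4.03 to 24.2 CPM in AA and from 2.17 to 21.5 CPM in YY. It was called without AA replicate 1 (adjusted p = 0.0465) or without YY replicate 4 (0.0137), and its adjusted p ranged from 0.0135 to 0.648 over all alternatives. Rnf8, which acts ahead of Rnf168, had 0.25 ± 0.15 (edgeR adjusted p = 0.202, and 0.034 with a correction for transcript length and GC content), and Trp63 had 0.35 ± 0.21 (edgeR adjusted p = 0.234). The Chek1 call was lost without AA replicate 3, 9 or 12 or YY replicate 7, 8 or 10, with a log2 fold change of 0.19 to 0.21 and an adjusted p of 0.0511 to 0.0716, within 0.000442 to 0.779 over all alternatives, and with the length and GC correction (0.16, adjusted p = 0.101).

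Homologous recombination had 15 tested genes, of which 2 rose and none fell (13.3% called, against 27.5% of all tested genes). The unadjusted p was under 0.05 for 3 of them (20%, against 38% of all tested genes). Rpa1 had 242.9, 336 and 411 CPM in the lowest, median and highest AA library, against 83.5, 178 and 389 CPM in YY, a log2 fold change of 0.69 ± 0.21 (edgeR adjusted p = 0.0148). Every AA library exceeded the YY median, but only 2 exceeded the highest YY library. Rad54l, a motor protein that acts in strand invasion, had 32.2, 46.8 and 60 CPM in AA, against 15.2, 24.5 and 49.3 CPM in YY (log2 fold change 0.69 ± 0.19, edgeR adjusted p = 0.0053). All 12 AA libraries exceeded the YY median. Rpa2 missed the threshold at 0.23 ± 0.09 (edgeR adjusted p = 0.055). It was called without AA replicate 1 or 10 or YY replicate 9 (adjusted p 0.021 to 0.0409, within 0.021 to 0.344 over all alternatives). Brca1, whose product starts resection and loads BRCA2, and Brca2, which acts after it in the same pathway, had log2 fold changes of 0.11 ± 0.18 (edgeR adjusted p = 0.708) and -0.15 ± 0.12 (edgeR adjusted p = 0.376). The other 10 tested genes, Rad50, Nbn, Mre11a, Exo1, Blm, Xrcc2, Xrcc3, Rad51c, Palb2 and Bard1, had log2 fold changes between -0.37 (Bard1) and 0.30 (Mre11a), and none was called.

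Mismatch repair held the gene of the set with the smallest p. Msh3 had 101, 172 and 219 CPM in the lowest, median and highest AA library, against 67.8, 83.5 and 146 CPM in YY. The log2 fold change was 0.82 ± 0.12 (edgeR adjusted p = 2.03e-06), and 9 of 12 AA libraries lay above the highest YY library. Msh3 (chromosome 13, 92348380 to 92491512 on mm39) overlaps another protein-coding gene with counts in the annotation. So do Msh6, Xrcc6, Rad54l, Trp53bp1, Lig1 and Slx4ip among the called genes. How reads that fall in both genes were counted, or whether they were left out, is not known. Msh6, the sensor of single mismatches, had 0.27 ± 0.11 (edgeR adjusted p = 0.0739), and Pms2, an endonuclease subunit of mismatch repair, had 0.38 ± 0.24 (edgeR adjusted p = 0.245).

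Of 4 tested end joining genes, 1 was called (25%, against 27.5% of all tested genes). Xrcc6, the smaller Ku subunit, had 113, 143 and 178 CPM in the lowest, median and highest AA library, against 66.1, 116 and 153 CPM in YY (log2 fold change 0.38 ± 0.11, edgeR adjusted p = 0.00987). Its partner Xrcc5 had -0.04 ± 0.11 (edgeR adjusted p = 0.828). Xrcc4 and Lig4, which form the ligase complex, had -0.05 ± 0.15 and -0.27 ± 0.17, neither called. Whether the 2 Ku subunits differ in response was not tested.

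Base excision and single-strand break repair had 8 tested genes, of which 2 rose and 1 fell (37.5% called, against 27.5% of all). Parp2 (chromosome 14, 51045298 to 51058759 on mm39) had 46.6, 66.2 and 96.6 CPM in the lowest, median and highest AA library, against 35.3, 44.6 and 57.8 CPM in YY, a log2 fold change of 0.61 ± 0.13 (edgeR adjusted p = 0.000408). The highest YY library was exceeded by 11 of 12 AA libraries. Lig1 (chromosome 7, 13011239 to 13045351 on mm39) had 13.4, 24.9 and 42.7 CPM in AA, against 5.97, 14.1 and 15.9 CPM in YY, and its log2 fold change of 0.96 ± 0.21 was the largest increase of the set (edgeR adjusted p = 0.000801). All but 2 AA libraries lay above the highest YY library. Xrcc1, the scaffold that gathers single-strand break factors, had 53.1, 73.8 and 82.9 CPM in AA, against 66.4, 96.7 and 122 CPM in YY (log2 fold change -0.42 ± 0.12, edgeR adjusted p = 0.0082). With a correction for transcript length and GC content it came to 0.02 (adjusted p = 0.928, within 0.00367 to 0.928 over all alternatives). Ung, the uracil glycosylase, had -0.26 ± 0.13 (edgeR adjusted p = 0.144). Apex1, Ogg1, Parp1 and Lig3 had log2 fold changes between -0.10 and 0.13, none called.

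Of the 4 tested interstrand crosslink repair genes, 1 was called (25%, against 27.5% of all tested genes). Slx4, the scaffold of the structure-cutting nucleases, had 1.58, 6.96 and 12.8 CPM in the lowest, median and highest AA library, against 4.95, 13.1 and 28.2 CPM in YY (log2 fold change -0.98 ± 0.29, edgeR adjusted p = 0.0104). The call was lost with the length and GC correction (-0.72, adjusted p = 0.0597, within 0.00383 to 0.317 over all alternatives). Slx4 did not pass the filter on low counts with only AA and YY in the fit, or against either YY series alone. Its levels were higher in YY, so its passing the filter in the main fit may rest on that group. Fanci, a clamp subunit monoubiquitinated at crosslinks, had 0.79 ± 0.35 (edgeR adjusted p = 0.0918), and was called without YY replicate 3 (adjusted p = 0.0444, within 0.0174 to 0.736 over all alternatives). Its partner Fancd2 had 0.17 ± 0.20 and Slx4ip, a protein that binds SLX4, had -0.07 ± 0.17, neither called.

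**Figure D2:**
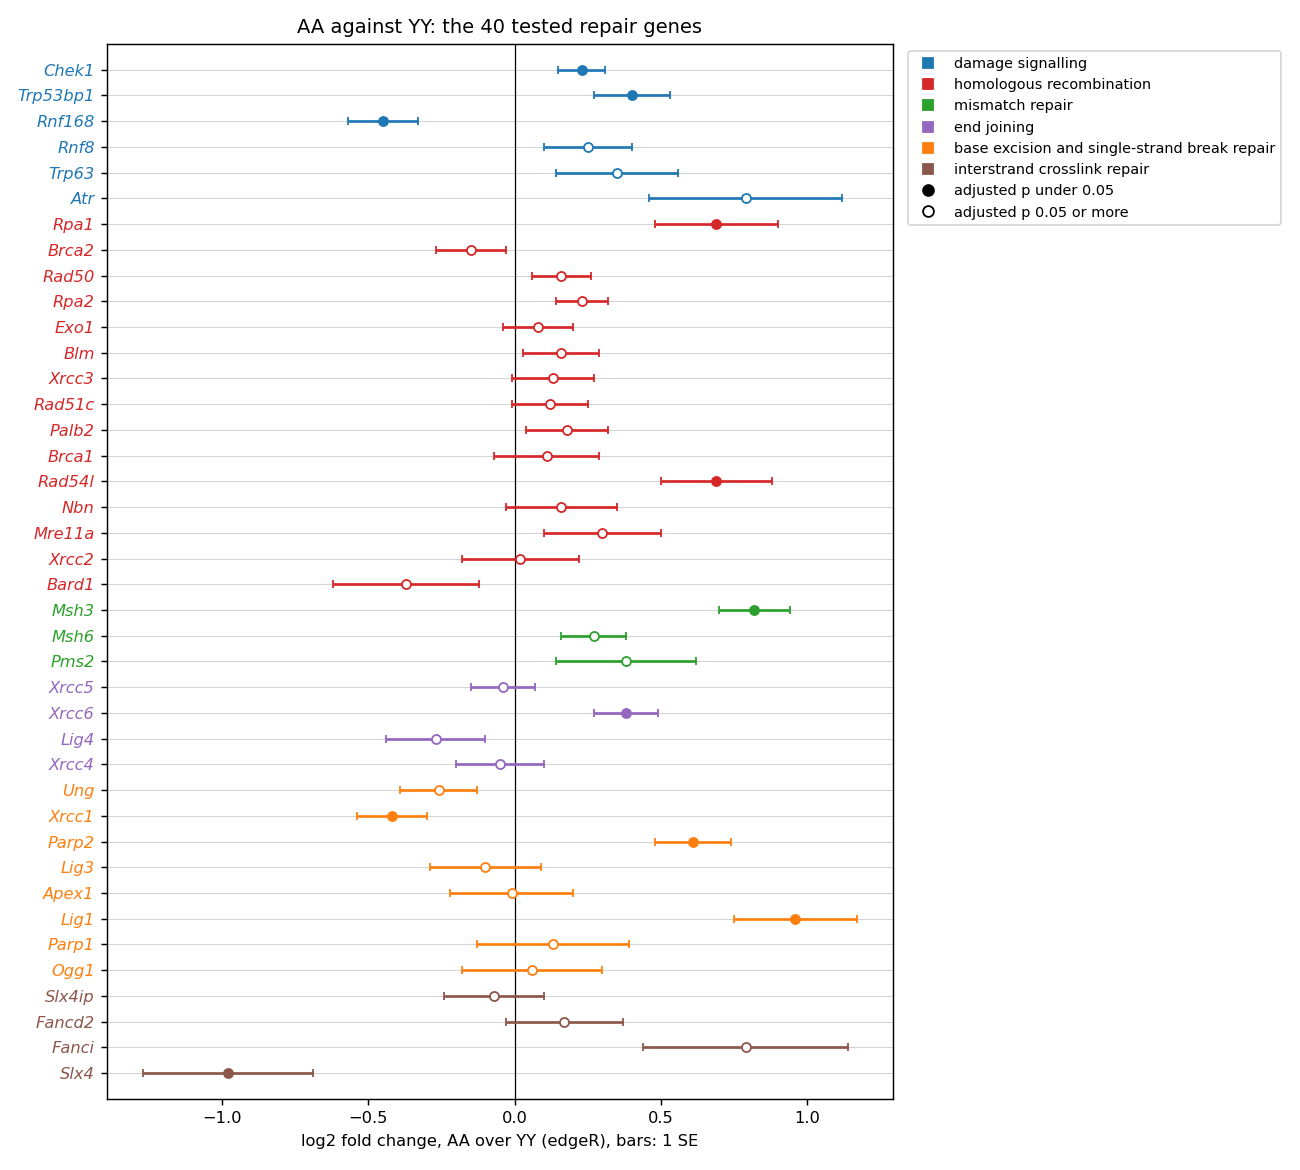
Log2 fold change, AA over YY, with 1 SE, for the 40 tested repair genes grouped by role; filled points are those with an adjusted p under 0.05. The 8 filled points right of 0 include Lig1 at 0.96 and Msh3 at 0.82, and the 3 left of 0 are Slx4 at -0.98, Rnf168 at -0.45 and Xrcc1 at -0.42.

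Several of these calls depended on which YY libraries AA was set against. Rpa1 had 241.6 to 389 CPM in the 5 libraries S198 to S202 and 83.5 to 178 CPM in the 6 libraries S225 to S231, with no overlap. AA exceeded the first series by a log2 of 0.14 (edgeR adjusted p = 0.651) and the second by 1.36 (edgeR adjusted p = 8.25e-08). Xrcc6 had 116 to 153 CPM in the first series and 66.1 to 127 in the second, and Chek1 had 635 to 765 CPM in the first and 459 to 666 in the second. Against S198 to S202 alone 4 of 39 tested genes were called (10.3%, against 5.43% of all tested genes), namely Msh3 (log2 fold change 0.84, edgeR adjusted p = 0.00012), Lig1 (1.16, 0.0188), Parp2 (0.60, 0.0321) and Xrcc1 (-0.56, 0.0198). Msh3, Lig1 and Parp2 were called against S225 to S231 alone as well, with log2 fold changes of 0.80, 0.82 and 0.61, and Xrcc1 was not (-0.31, edgeR adjusted p = 0.085). In that comparison 12 of 39 genes of the set were called (30.8%, against 38.1% of all tested genes). Rpa1, Rad54l, Trp53bp1, Xrcc6, Chek1 and Rnf168 were called against S225 to S231 alone but not against S198 to S202 alone, and Slx4 was tested against neither series alone. A further division of the oocytes comes from 11 genes that are either present or nearly absent in a library and define 10 patterns. The 2 patterns of AA and the 2 of AY occurred in no other group. With the pattern as a random block in limma voom, Msh3, Lig1, Parp2, Rpa1, Rad54l and Xrcc6 were called (15% of 40, against 12.7% of all tested genes). With the libraries of each pattern summed none of the 40 was, nor more than 2 of all 8533 genes, by edgeR (Msh3 had the log2 fold change 0.72 and adjusted p = 0.154).

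Some cell type markers also differed with the group. Of the 11 oocyte markers, Nlrp5 (log2 fold change 1.37), Zp2 (0.56) and Zp1 (0.50) were higher in AA than in YY, and Dazl (-0.81) and Mos (-0.18) lower. The 10 granulosa cell markers summed to a median of 103 CPM in AY, 107 in AA and 74.3 in YY (unscaled CPM), with highest sums of 257 in AA and 101 in YY. Of them 2 were called in AA against YY, where 27.5% of all tested genes were called. They were Inha (log2 fold change 2.78 ± 0.485) and Inhba (1.985 ± 0.467). Cyp19a1 (0.372 ± 0.253) and Nr5a2 (-0.216 ± 0.145) were tested and not called, and the other granulosa cell markers were not tested. The part of the cell type markers in the repair gene results was not tested.

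**Figure D3:**
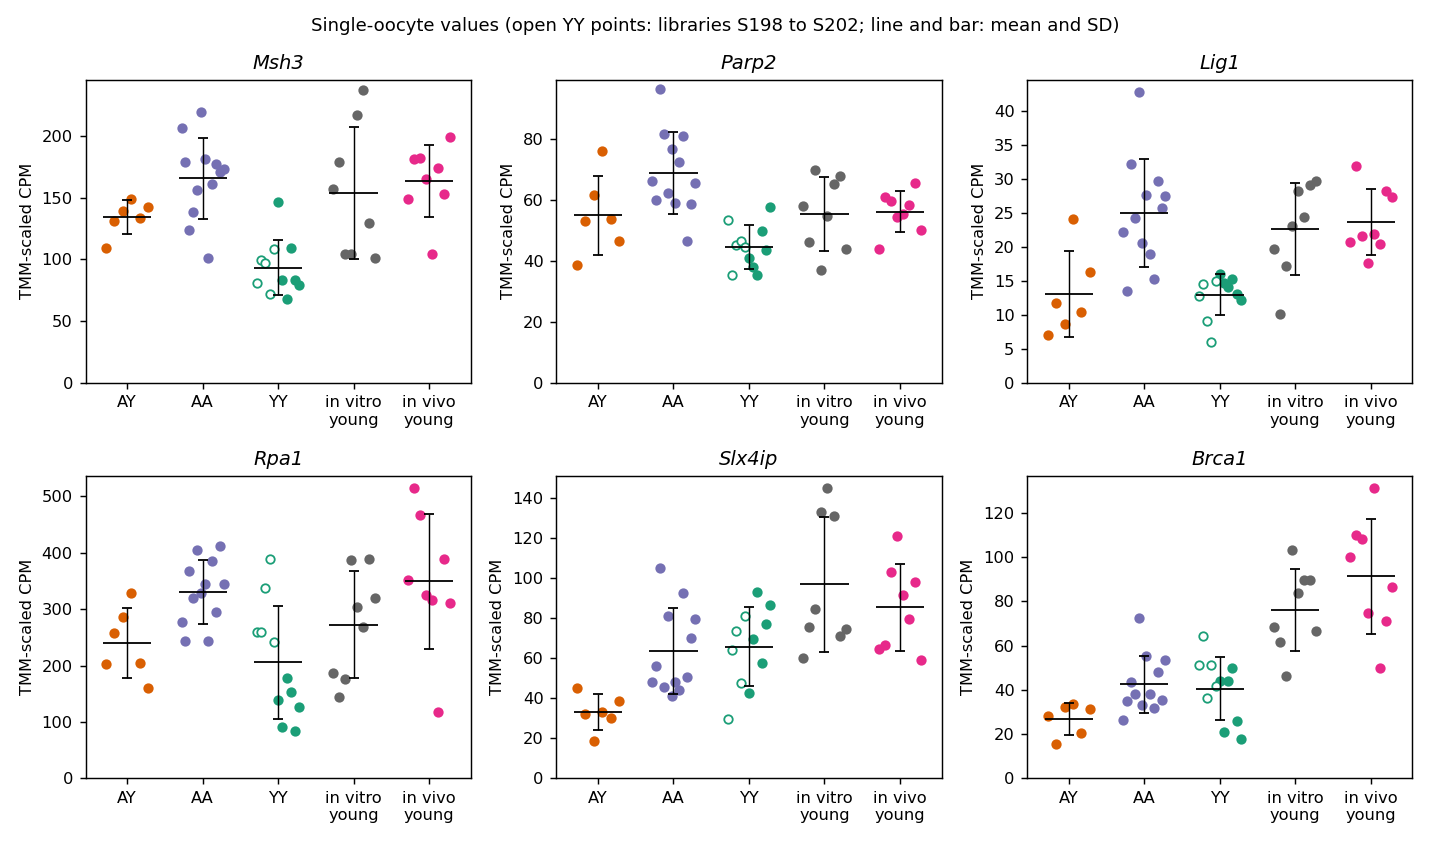
TMM-scaled CPM of 6 repair genes in each single oocyte, with the mean and SD of the group; open YY points are libraries S198 to S202 and filled YY points S225 to S231. Msh3, Parp2 and Lig1 are lower in both YY series than in most AA oocytes, Rpa1 separates the 2 YY series, the AY median is the lowest for Slx4ip, and the Brca1 medians of the 3 chimeric groups lie below those of both control groups.

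AY oocytes, set against AA oocytes, had 3 repair genes lower and none higher, all from different roles. Those were Lig1, Slx4ip and Msh6. The 3 of 40 tested genes are 7.5%, against 6.59% of all 8533 tested genes, and 7.5% lower, against 3.07%; among all genes 3.52% were called higher. The unadjusted p was under 0.05 for 11 of the 40 (27.5%), against 21.9% of all tested genes. The median log2 fold change was -0.14, beside 0.00 over all genes, and 29 of the 40 lay below 0. AY and AA overlapped for each of the 40 genes, and the share over all tested genes is not given here. The AA libraries are the ones that also stood in AA against YY, so the 2 comparisons are not independent.

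Lig1 had 7.06, 11 and 24.1 CPM in the lowest, median and highest AY library, against 13.4, 24.9 and 42.7 CPM in AA (log2 fold change -1.01 ± 0.26, edgeR adjusted p = 0.017). All 6 AY libraries lay below the AA median and 4 below the lowest AA library. It was no longer called without AY replicate 1 (log2 fold change -0.86, adjusted p = 0.0828, within 0.006 to 0.519 over all alternatives). Slx4ip (chromosome 2, 136733138 to 136913871 on mm39) had 18.5, 32.9 and 45 CPM in AY, against 41, 53.5 and 105 CPM in AA (log2 fold change -0.93 ± 0.22, edgeR adjusted p = 0.00853). Here 5 of 6 AY libraries were below the lowest AA library. Msh6 had 72.9, 97.4 and 124 CPM in AY, against 107, 131 and 192 CPM in AA (log2 fold change -0.48 ± 0.14, edgeR adjusted p = 0.0294), and also had 5 AY libraries below the lowest AA library. Its call was lost without AY replicate 3, 5 or 6 or AA replicate 6 (log2 fold change -0.48 to -0.41, adjusted p 0.0525 to 0.1, within 0.00578 to 0.527 over all alternatives). With the pattern as a random block, none of the 40 was called, against 0.938% of all tested genes.

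By mean level, the genes called in AA against YY lay between the AA and YY means in AY, except Trp53bp1. Only Lig1 among them was called against AA. These genes were picked by their difference between the same AA and YY libraries, so a place between those means is no separate result. For Lig1 the means were 13 CPM in AY and 12.9 in YY, and its AY median of 11 CPM lay below the YY median of 14.1. Rpa1 had 160 to 329 CPM in AY, Rad54l 15.1 to 51.8 CPM and Xrcc6 104 to 143 CPM. Parp2 had 38.8, 53.5 and 76.2 CPM in the lowest, median and highest AY library, a log2 fold change of -0.34 ± 0.15 against AA (edgeR adjusted p = 0.179). Trp53bp1 had -0.47 ± 0.16 (edgeR adjusted p = 0.0633), with all 6 AY libraries below the AA median. Brca1, uncalled in AA against YY, had 15.5 to 33.4 CPM in AY, against 26.2 to 72.3 CPM in AA (-0.69 ± 0.23, edgeR adjusted p = 0.0623).

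AY oocytes, set against YY oocytes, had 1 repair gene higher and 1 lower, which is 5% of the 40, against 1.62% of all tested genes (0.715% higher and 0.902% lower). Msh3 had 109, 136 and 148.6 CPM in AY, against 67.8, 83.5 and 146 CPM in YY (log2 fold change 0.51 ± 0.14, edgeR adjusted p = 0.0465), with all 6 AY libraries above the YY median and 1 above the highest YY library. Slx4ip had 18.5, 32.9 and 45 CPM in AY, against 29.9, 69.8 and 93.3 CPM in YY (log2 fold change -1.0 ± 0.22, edgeR adjusted p = 0.00911). All 6 AY libraries were below the YY median. The Msh3 call was lost when any of AY replicates 2 to 6 or YY replicates 1 to 4, 7, 8, 10 or 11 was left out (adjusted p 0.0506 to 0.119, within 0.012 to 0.925 over all alternatives). Neither gene was called against S198 to S202 alone (edgeR adjusted p = 0.0668 for both), where 0 of 39 tested members were called, against 1.61% of all genes. Both were called against S225 to S231 alone (Msh3 0.49, edgeR adjusted p = 0.0419; Slx4ip -1.10, 0.00195), among 6 of 39 members (15.4%), against 10.3% of all genes. With the pattern as a random block in limma voom neither was called (Msh3 0.48, adjusted p = 0.381; Slx4ip -0.95, 0.126). The replicate block in edgeR lost both calls (adjusted p = 0.114 for Msh3 and 0.097 for Slx4ip), as did summing the libraries of each pattern. Msh3 was also lost with limma voom with quality weights (adjusted p = 0.059). In edgeR it was lost with only the groups compared (0.0767), all 45 libraries in 1 fit (0.0925) and genes detected as a covariate (0.0515). Lig1 had a log2 fold change of -0.05 ± 0.28 against YY (edgeR adjusted p = 0.957).

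**Figure D4:**
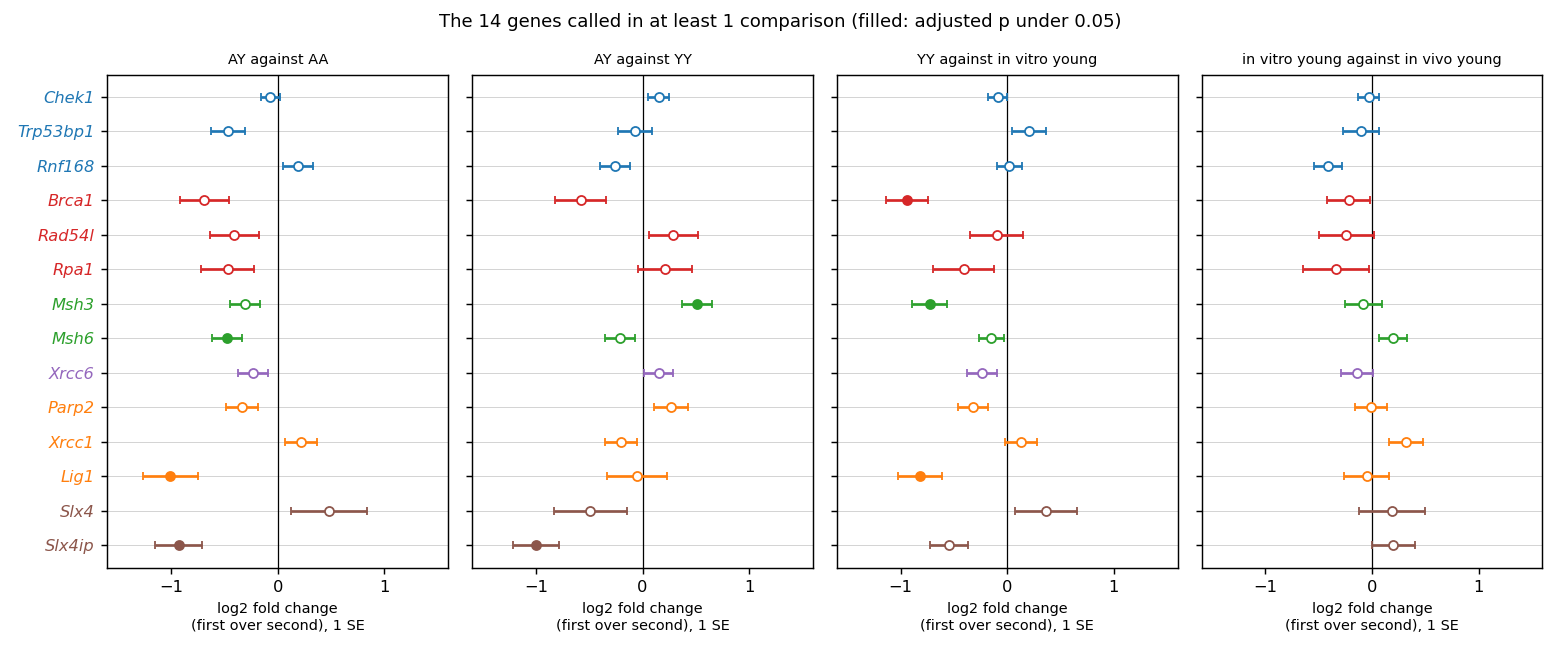
Log2 fold change, first group over second, with 1 SE, in 4 comparisons for the 14 genes called in at least 1 comparison; filled points have an adjusted p under 0.05. Slx4ip is filled in both AY panels at -0.93 and -1.0, and Brca1 at -0.94 is the lowest point of the YY against in vitro young panel.

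YY oocytes, set against in vitro young oocytes, had 3 repair genes lower and none higher. Those were Brca1, Lig1 and Msh3, 7.32% of 41 tested genes, against 2.48% of all 8749 (1.7% lower and 0.777% higher). Brca1 (chromosome 11, 101379590 to 101442782 on mm39) had 17.8, 43.8 and 64.3 CPM in YY, against 46.2, 76.1 and 103 CPM in in vitro young (log2 fold change -0.94 ± 0.20, edgeR adjusted p = 0.00485). All 11 YY libraries lay below the in vitro young median and 7 below its lowest library. Lig1 had 5.97 to 15.9 CPM in YY, against 10.1 to 29.6 CPM in in vitro young (-0.82 ± 0.21, edgeR adjusted p = 0.0227). Msh3 had 67.8 to 146 CPM in YY, against 101 to 237 CPM in in vitro young (-0.73 ± 0.16, edgeR adjusted p = 0.007), with 8 of 11 YY libraries below the lowest in vitro young library. The Lig1 call was lost without in vitro young replicate 5, 6, 7 or 8 (adjusted p 0.053 to 0.0724, within 0.0034 to 0.928 over all alternatives). It was also lost with no filter on low counts (0.0692), with the replicate block (0.0798) and with detected genes per library as a covariate (0.0999). The pattern as a random block (0.0835) and the libraries of each pattern summed (0.417) lost it too. Msh3 was lost with the covariate of detected genes (-0.55, adjusted p = 0.124). None of the 3 was called with S198 to S202 alone (Brca1 -0.67, edgeR adjusted p = 0.114; Lig1 -1.02, 0.073; Msh3 -0.75, 0.0503), where 0 of 41 members were called, against 1.1% of all genes. With S225 to S231 alone Brca1 (-1.18, edgeR adjusted p = 0.00198) and Msh3 (-0.70, 0.0241) were called and Lig1 was not (-0.68, 0.0685), and 5 of 41 members were called (12.2%), against 9% of all genes. The calls also depended on the in vitro young libraries. Against S162 to S165 alone 4 of 41 members were called (9.76%), against 4.13% of all genes. All 3 were called there, Brca1 at -1.05 (edgeR adjusted p = 0.00552), Lig1 at -1.11 (0.0034) and Msh3 at -0.88 (0.00358). Against S128 to S149 alone none was (Brca1 -0.81, 0.632; Lig1 -0.44, 0.928; Msh3 -0.55, 0.657), nor any of all 9252 tested genes. These 2 divisions were chosen after seeing the data. Rad50, whose product is part of the break-sensing MRE11 complex, had -0.36 ± 0.11 (edgeR adjusted p = 0.0547).

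In vitro young oocytes, set against in vivo young oocytes, had no repair gene called among 41 tested by edgeR, beside 0.137% of all 8749 genes. DESeq2 and limma called none either, and 3 (7.32%) had an unadjusted p under 0.05, against 9.65% of all genes. The smallest p belonged to Rnf168, with 72.4, 108 and 133 CPM in in vitro young, against 121, 147 and 160 CPM in in vivo young (log2 fold change -0.41 ± 0.13, edgeR adjusted p = 0.187). Msh3 had 101, 143 and 237 CPM in in vitro young, against 104, 170 and 198.9 CPM in in vivo young (-0.08 ± 0.17, edgeR adjusted p = 0.926), and Lig1 had -0.05 ± 0.21 (edgeR adjusted p = 0.995). For the genes named above, a p that misses the threshold does not show that the groups are alike.

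Other genes of the same pathways, 114 genes in 8 lists that exclude the 46, were tested in the same fits. In AA against YY, 84 were tested, of which 16 were higher (19%, against 12.8% of all tested genes) and 10 lower (11.9%, against 14.7%). Mismatch repair had 4 of 6 tested genes higher (66.7%, against the same 12.8%) and 0 lower, in a list chosen with earlier results known. Pms1, a mismatch repair protein, had a log2 fold change of 0.67 ± 0.13, and Msh4, which stabilises meiotic crossover intermediates, had 0.91 ± 0.18. Against S198 to S202 alone, 0 of these 6 were called (against 5.43% of all tested genes) and 2 had an unadjusted p under 0.05. Against S225 to S231 alone 4 were called (66.7%, against 38.1%), and with the pattern as a random block 3 (50%, against 12.7%). Of 17 other homologous recombination genes tested, 5 were higher (29.4%) and 2 lower (11.8%), against 12.8% and 14.7% of all tested genes. Among the lower ones was Rpa3, the smallest subunit of the RPA trimer (-0.61 ± 0.12). Of all 84, 0 were higher and 1 lower against S198 to S202 alone (1.19%, against 5.43% of all tested genes). Against S225 to S231 alone, 18 were higher and 13 lower of 82 (37.8%, against 38.1%). In AY against AA, 2 were higher and 3 lower (5.95% of 84, against 6.59% of all tested genes). Msh4 had 31.4, 38.4 and 42.5 CPM in AY, against 45.1, 78.2 and 108 CPM in AA (-1.06 ± 0.22, edgeR adjusted p = 0.00273), with no overlap between the groups, and Gen1 and Fancc were lower too. Ppm1d, a phosphatase that ends checkpoint signalling, was higher at 1.23 ± 0.36, also with no overlap. Polm, a polymerase of end joining, was higher at 1.36 ± 0.42 with overlap. Such genes were picked by their small p, and the share of all tested genes with no overlap is not given here. With the pattern as a random block, 0 of these 84 were called in AY against AA, against 0.938% of all tested genes. The unadjusted p was under 0.05 for 16 of them. None of the 84 was called in AY against YY by edgeR, DESeq2 or limma (11 at an unadjusted p under 0.05 by edgeR), where edgeR called 1.62% of all tested genes. Against S225 to S231 alone 5 were higher and 3 lower of 82 (9.76%, against 10.3% of all genes). With the length and GC correction 1 was higher (1.19%, with the share over all genes not given here). None was called of 86 in in vitro young against in vivo young by edgeR, DESeq2 or limma (9 at an unadjusted p under 0.05). In YY against in vitro young, H2ax, the histone phosphorylated around breaks, was higher (0.69 ± 0.16), as were Poll and Rpa3. Topbp1, which activates ATR, was lower (-0.89 ± 0.20). These genes too were picked by their small p, and the number called of the lists is not given here. Of all tested genes 2.48% were called, 1.1% with YY S198 to S202 alone and none with in vitro young S128 to S149 alone.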

How the data were processed

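Read counts per gene, whole numbers and not normalized, were deposited by the authors for 45 libraries. STAR 2.7.8a, HTSeq 0.11.0 and build mm39 were used, per the submitters' processing notes. The gene annotation, the use of strand and the handling of reads shared by overlapping genes are not given in the sources used here.

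Each comparison was fitted over all genes in R 4.3.3 with edgeR 4.0.16 (TMM scaling, filterByExpr by group with a minimum count of 10 and a minimum total of 15, robust quasi-likelihood test, Benjamini-Hochberg adjustment, calls at an adjusted p under 0.05). 1 fit took the 29 chimeric libraries (8533 genes) and a second the 27 libraries of YY and both control groups (8749 genes). Standard errors were derived from the F statistic. The script was tested on simulated data. All pairs of libraries within a group differed by more than sampling noise (chi-square over its degrees of freedom at least 1.985), so no library was counted as a duplicate. The 1362 rows with an identifier but no gene name were kept.

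The 46 genes and the other lists were chosen with earlier results of these data known. Named genes were those called in at least 1 comparison, filled to 20 by the smallest p in AA against YY, plus the highest and lowest per kb. Of each other list, up to 2 called genes per comparison were eligible, and some of these genes are not reported here. Alternatives were RLE size factors, DESeq2 1.42.0, limma 3.58.1 voom with quality weights, other filters and sets of libraries, a replicate block, genes detected as a covariate, a correction for length and GC content, the pattern of 11 all-or-nothing genes (10 patterns) as a random block or summed, either YY series alone, leaving out each library and, added after seeing the data, number series of the control groups alone.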

Additional observations from a re-analysis of the deposited data

Results flagged for a closer look

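Rnf168, the histone ubiquitin ligase at breaks, had 121 CPM in in vivo young replicate 7, below the other 7 libraries of the group at 143 to 160 CPM. Rnf8, the ligase ahead of it, had 81.9 CPM in AY replicate 5, above the other 5 libraries at 58.2 to 64.8 CPM. Each sample lay far from the rest of its group by Dixon's criterion, which was applied to 60 groups of values. Chance flags about 1 in 20 such groups, and 2 were flagged here.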

How the results depend on the processing

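In AA against YY the 11 called repair genes (27.5%, against 27.5% of all tested genes) became 6 with the pattern as a random block (15%, against 12.7%). They became 0 with the libraries of each pattern summed (against 0.0234%) and 4 against S198 to S202 alone (10.3%, against 5.43%). Leaving out 1 library gave 10 to 13. In AY against AA the 3 (7.5%, against 6.59% of all tested genes) became 7 with limma voom and 5 with no filter. They became 7 with only the groups compared and 5 with the replicate block. There were 0 with the pattern block (against 0.938%) and 0 with the patterns summed (against 0.0117%). Leaving out 1 library gave 2 to 4. In AY against YY the 2 (5%, against 1.62% of all tested genes) became 1 with limma voom and with only the groups compared. The count was also 1 with all 45 libraries in 1 fit and with genes detected as a covariate. It was 0 with the replicate block, the pattern block (against 0.258%), the patterns summed (against 0%) and S198 to S202 alone (against 1.61%). With S225 to S231 alone it was 6 (15.4%, against 10.3%). Leaving out 1 library gave 1 to 2. In YY against in vitro young the 3 (7.32%, against 2.48% of all tested genes) became 5 with limma voom and 1 with genes detected as a covariate. They became 0 with the patterns summed (against 0%) and with S198 to S202 alone (against 1.1%). With S225 to S231 alone there were 5 (12.2%, against 9%). With in vitro young S128 to S149 alone, a division chosen after seeing the data, there were 0 (against 0%). Leaving out 1 library gave 2 to 4. In vitro young against in vivo young stayed at 0 in each alternative run. Where no share over all tested genes stands beside a count, that share is not given here. Such a count may move with the calls over all genes. Xrcc1 in AA against YY turned to a log2 of 0.02 with the length and GC correction. Summing patterns leaves few samples, and the causes of the other changes were not tested. The labels do not say what a replicate number marks, so it is not known whether the replicate block has a basis in the design. Of same-numbered pairs across groups, 13 of 75 had a correlation of deviations over 0.1 (median 0.005). Of different-numbered pairs, 72 of 723 did (median -0.002). Alternatives were run for 25 pairs of a gene and a comparison, and no other pair changed direction.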
